A study of Mus musculus with 9 samples.

Results

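Aim2, Ifi203, Ifi204, Mnda, Mndal, Pyhin1 and Zbp1 are 7 mouse genes for sensors of nucleic acids inside the cell, and their RNA is described here in 3 kinds of cultured macrophage. They were chosen by gene symbol, so that 7 of the 46078 genes in the deposited expression table are covered. The rule itself uses no measured value, but the genes were picked with earlier results of these data known. The table's Mnda (ENSMUSG00000026536) is named Ifi211 in the GENCODE annotation, and its Pyhin1 (ENSMUSG00000043263) is named Ifi209. All 7 genes passed the filter on low values.

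Aim2, Ifi203, Ifi204, Mnda, Mndal and Pyhin1 belong to the PYHIN family, also called AIM2-like receptors, whose proteins typically join a pyrin domain, which binds other pyrin domains, to a HIN domain, which binds DNA. AIM2 bound to double-stranded DNA in the cytosol recruits the adaptor ASC (gene Pycard) and caspase-1 into an inflammasome, which matures interleukin-1β and interleukin-18 and cleaves gasdermin D to kill the cell. IFI204 in the mouse is linked to the STING route, which starts from foreign DNA and ends in type I interferon. ZBP1 is no PYHIN protein: it binds nucleic acids in the Z conformation and passes the signal to RIPK3, which drives necroptosis through MLKL and can also engage caspase-8. Zbp1 and many PYHIN genes are known as targets of interferon in mouse macrophages.

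All macrophages were grown from C57BL/6J mice, a widely used inbred strain. FLM_G cells came from fetal liver of gestational day 15 to 19 and grew in 10% fetal bovine serum with 30 ng/ml recombinant mouse GM-CSF, a growth factor of granulocytes and macrophages. FLM_M cells came from fetal liver of the same stages and grew in 20% serum with 30% L-cell supernatant, which supplies M-CSF, the growth factor specific to macrophages. BMM cells came from bone marrow, and the labels do not describe their medium. No agent was added to stimulate the sensors in any culture as far as the labels say, and every culture was at least 8 weeks old. FLM_G and FLM_M differed in serum and in the supernatant as well as in growth factor, so these parts of the media cannot be told apart, nor can the tissue and the unstated medium in comparisons with BMM. Each culture gave 3 libraries from wells plated at 250000 cells. Nothing says that these wells were separate cultures or animals. The p-values therefore speak for the spread of these libraries alone, and that spread may be technical.

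The expression values are FPKM (fragments per kilobase of transcript, corrected for depth), scaled between libraries by factors of 0.801 to 1.14, and they can be compared between genes because they are per length. A value given with ± is the mean and SD over the 3 libraries of a culture. Read from the value of a single read in low genes, library depth was 28390000 to 35470000 reads. Libraries of 1 culture correlated across genes at 0.9857 or more, and libraries of different cultures at 0.9361 or less. All 9 macrophage markers listed exceeded 1 FPKM in each culture. Cd3e, Cd3g and Cd79a of lymphocytes, all 4 mast cell markers, and Alb, Ttr and Apoa1 of hepatocytes were at 0 throughout. Afp, the remaining hepatocyte marker listed, stood at 0.79 to 1.13 in FLM_G, 1.94 to 2.57 in FLM_M and 1.59 to 1.92 FPKM in BMM. Summed endothelial markers stood at 4.23 to 4.43 in FLM_G, 6.43 to 8.36 in FLM_M and 1.35 to 1.47 FPKM in BMM. Of these 3 markers, 1 averaged at least 1 FPKM in FLM_G, 1 in FLM_M and 0 in BMM. The summed neutrophil markers stood at 49.7 to 56.7 in FLM_G, 9.51 to 12.3 in FLM_M and 1.84 to 2.19 FPKM in BMM. Ly6g, Elane and Camp were at 0 in all libraries, and only 1 of the 6 averaged at least 1 FPKM in each culture. Summed dendritic cell markers stood at 2.13 to 3.08 in FLM_G, 0.38 to 0.52 in FLM_M and 0.0661 to 0.138 FPKM in BMM. Of these 5 markers, 1 averaged at least 1 FPKM in FLM_G and 0 in FLM_M and BMM. Xist, which marks female cells, stood at 41.3 to 54.7 in FLM_G, 67.2 to 74.3 in FLM_M and 0 to 0.00444 FPKM in BMM, and the Y-linked Eif2s3y at 0 in FLM_G and FLM_M and 10.6 to 11.3 in BMM. Sex thus differed between BMM and both fetal liver cultures in every library. In comparisons with BMM it cannot be told apart from tissue and medium. The part of these marker and sex differences in the results below was not tested.

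The 6 PYHIN sensors lie within 1 cluster on chromosome 1, and Zbp1 lies on chromosome 2 (173206612 to 173218923, GRCm38). From RefSeq (GRCm38.p6), promoter windows from 250 bases before to 50 after the transcript start were found for Aim2, Ifi203, Mnda, Mndal and Pyhin1. Those of Mnda and Aim2 are printed whole, Mnda for its high level in FLM_M and Aim2 because it differed least between cultures among the 7 sensors. The core letters of the interferon-stimulated response element, GAAANNGAAA, were searched on both strands, and the match is in capitals in the whole Mnda window (chr1:173912997-173913296, minus strand), 37 bases before the start. The Aim2 window (chr1:173420354-173420653, plus strand) held no match. It is the only window found for Aim2. The annotated gene has 7 transcripts and begins further upstream, at 173350879, so other starts were not searched.
Mnda: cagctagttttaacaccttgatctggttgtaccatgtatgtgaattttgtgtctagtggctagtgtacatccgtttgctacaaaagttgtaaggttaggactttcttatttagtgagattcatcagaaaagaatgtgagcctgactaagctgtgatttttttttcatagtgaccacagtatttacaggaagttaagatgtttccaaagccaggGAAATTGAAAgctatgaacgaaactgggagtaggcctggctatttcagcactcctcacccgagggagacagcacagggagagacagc
Aim2: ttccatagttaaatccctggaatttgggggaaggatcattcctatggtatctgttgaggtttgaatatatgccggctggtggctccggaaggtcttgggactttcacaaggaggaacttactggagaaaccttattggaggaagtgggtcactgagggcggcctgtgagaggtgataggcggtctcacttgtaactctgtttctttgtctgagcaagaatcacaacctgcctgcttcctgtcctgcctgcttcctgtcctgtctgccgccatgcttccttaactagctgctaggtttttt

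The letters GAAANNGAAA occurred in windows of 3 of the 5 sensors (Ifi203, Mnda and Mndal), in 6 of the 7 other PYHIN genes with a window, and in 3.44% of all 32851 mouse promoters of that table. Ifi203 and Mndal each have an alternative start with a window of its own, which held no match in Ifi203 and a match on the opposite strand, 54 bases before the start, in Mndal. The windows shown next are all on chromosome 1, on the minus strand except Pyhin1 and Pydc3: Ifi203 chr1:173942443-173942742, Mndal chr1:173880138-173880437, Gm4955 chr1:173491269-173491568, AI607873 chr1:173741760-173742059, Pydc4 chr1:173599223-173599522, Pydc3 chr1:173673415-173673714 and Pyhin1 chr1:173630609-173630908. Each line gives the match with 10 bases on either side; those of Ifi205 and BC094916 are not shown. In Pyhin1 no match was present, and of 2 places on its own strand that differ by 1 base the one with TC between the repeats is shown, with the substitution G1T counted from 1 at the 5′ end of the motif, and its capitals mark the bases that still match.
Ifi203: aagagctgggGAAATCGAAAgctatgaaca
Mndal: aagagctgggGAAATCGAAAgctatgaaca
Mnda: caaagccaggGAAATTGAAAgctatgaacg
Gm4955: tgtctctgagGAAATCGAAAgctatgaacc
Pydc4: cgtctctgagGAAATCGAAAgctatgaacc
Pydc3: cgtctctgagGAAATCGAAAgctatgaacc
AI607873: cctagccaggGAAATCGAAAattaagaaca
Pyhin1: aatctctgagtAAATCGAAAgagatgcact

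The matches begin 35 bases before the start in Ifi203, 36 in Mndal, 37 in Mnda, 40 in Gm4955, 41 in AI607873, 58 in Pydc3 and 73 in Pydc4, and the near match of Pyhin1 begins 79 bases before. GAAATCGAAA or GAAATTGAAA occurred on the gene's own strand in 9 of the 12 PYHIN genes with a window. On either strand they occurred in 54 of all promoters (0.164%), the PYHIN windows among them. These forms were taken from the PYHIN windows themselves, so the comparison is a description and no test. The family arose by gene duplication, so these shared letters are not independent of each other. The letters TTCNNNGAA of the gamma-activated site, searched on both strands, occurred in 0 of the 5 sensors, 1 of the 7 other PYHIN genes and 8.3% of all promoters. Letters in a window do not show that a factor binds there, and whether they bear on the levels in these cultures was not tested.

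Mnda, Ifi204, Mndal, Ifi203 and Pyhin1 had one order of levels in the 3 cultures, highest in FLM_M, lower in BMM and lowest in FLM_G, with no overlap between libraries of different cultures. Such separation was not counted over all tested genes, so here and below it is a description of single genes. Depending on the comparison, 44.6% to 70.6% of all tested genes had a limma adjusted p under 0.05. Aim2 was also highest in FLM_M but overlapped between FLM_G and BMM. Zbp1 ran against the other sensors, lowest in FLM_M and highest in BMM. In bulk RNA, fewer cells expressing a gene and less RNA per cell cannot be told apart.

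**Figure D1:**
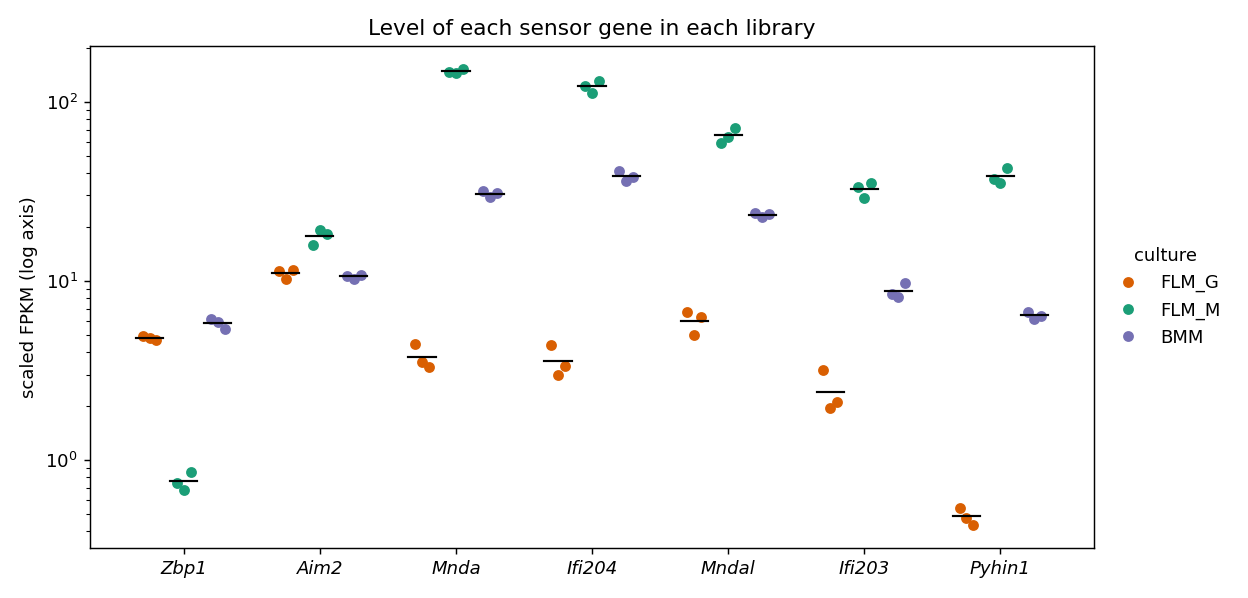
Scaled FPKM of the 7 sensor genes on a log axis, with a point for each library and a bar at the mean of the 3 libraries of a culture. Mnda spans 3.30 to 153 FPKM, Aim2 only 10.2 to 19.2, and Zbp1 is the gene whose FLM_M points lie below those of FLM_G and BMM.

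Zbp1 measured 4.95, 4.82 and 4.68 FPKM in the FLM_G libraries, 0.741, 0.682 and 0.858 in FLM_M, and 6.09, 5.92 and 5.41 in BMM. Each FLM_M library was therefore below 1 FPKM, and no cultures overlapped. The mean in FLM_G was 6.33-fold that in FLM_M, a log2 fold change of 1.73 (SE 0.06, limma adjusted p = 1.99e-08). Fold changes on the log2 scale are of FPKM + 1 and understate the change of low genes. In FLM_M the mean was 7.64-fold lower than in BMM, and the log2 value fell by 1.95 (SE 0.06, limma adjusted p = 3.51e-08). The difference between FLM_G and BMM was small, -0.23 (SE 0.06, limma adjusted p = 0.0107), and was -0.58 when the FPKM were left unscaled. None of the read-length (101-base) stretches of its transcripts occurs in another annotated gene, and no annotated gene overlaps it.

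Aim2 (chromosome 1, 173350879 to 173466040, plus strand) measured 11.3, 10.2 and 11.5 FPKM in FLM_G, 15.8, 19.2 and 18.2 in FLM_M, and 10.7, 10.3 and 10.8 in BMM. The FLM_M libraries lay above all others, and those of FLM_G and BMM were interleaved. Relative to FLM_M, the level in FLM_G fell by 0.64 on the log2 scale (SE 0.08, limma adjusted p = 7.3e-05), and its mean was 1.61-fold lower. FLM_M exceeded BMM by 0.69 (SE 0.08, limma adjusted p = 0.000113), a 1.67-fold difference of means. Between FLM_G and BMM the log2 difference was 0.05 (95% interval -0.13 to 0.22, limma adjusted p = 0.616). That comparison turned with the scaling: the deposited FPKM were 9.25, 8.23 and 9.25 in FLM_G and 11.7, 11.2 and 11.6 in BMM, which gave -0.34 (limma adjusted p = 0.00292). Both larger Aim2 differences kept their direction under each scaling. The gene overlaps Cadm3 on the opposite strand, and no read-length stretch of Aim2 is shared with another gene.

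Mnda, the PYHIN sensor with the highest level in any culture, measured 4.42, 3.51 and 3.30 FPKM in FLM_G, 146, 144 and 153 in FLM_M, and 31.6, 29.4 and 30.8 in BMM. Libraries within a culture were close and the cultures stood far apart. Its FLM_G mean was 39.5-fold lower than that of FLM_M, or -4.98 on the log2 scale (SE 0.08, limma adjusted p = 1.42e-10), the largest among the 7 sensors in size. Against BMM, the log2 level fell by 2.74 in FLM_G (SE 0.08, limma adjusted p = 7.49e-09) and was 2.24 higher in FLM_M (SE 0.08, limma adjusted p = 8.81e-08). Reads of Mnda are not unique to it: 56.68% of its read-length stretches also occur in other genes' transcripts, 37.15% in those of Ifi205, so the split of reads between these genes is uncertain. The sum of Mnda and Ifi205 was 3.75 ± 0.60 FPKM in FLM_G, 171 ± 5.9 in FLM_M and 32.9 ± 1.3 in BMM (SD, n = 3 each), the same order as for Mnda alone.

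Ifi204, the gene of the STING-linked DNA sensor, lies at 173747293 to 173766943 on chromosome 1. It measured 4.38, 2.97 and 3.36 FPKM in FLM_G, 123, 112 and 131 in FLM_M, and 41.2, 36.0 and 38.0 in BMM. Every FLM_G library was below 5 FPKM and every FLM_M library above 100. The FLM_G mean was 34.1-fold lower than in FLM_M (log2 -4.76, SE 0.11, limma adjusted p = 1.32e-09) and 10.8-fold lower than in BMM (log2 -3.12, SE 0.11, limma adjusted p = 2.43e-08). FLM_M stood 3.17-fold above BMM (log2 1.64, SE 0.11, limma adjusted p = 4.92e-06). In BMM, Ifi204 and not Mnda was the highest of the 7, at 38.4 ± 2.6 against 30.6 ± 1.1 FPKM (SD, n = 3). Of its read-length stretches, 10.6% are shared with other genes, mostly with Mnda.

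Mndal, another PYHIN gene (173849126 to 173942491), covers Mnda and most of Ifi203 on the same strand. It measured 6.68, 4.99 and 6.32 FPKM in FLM_G, 59.0, 63.9 and 71.6 in FLM_M, and 23.8, 22.8 and 23.6 in BMM. Its mean was 10.8-fold lower in FLM_G than in FLM_M and 3.90-fold lower than in BMM. Ifi203 (173920407 to 173942672) measured 3.16, 1.96 and 2.11 FPKM in FLM_G, 33.6, 29.2 and 35.3 in FLM_M, and 8.49, 8.16 and 9.67 in BMM. The Ifi203 mean was 13.6-fold lower in FLM_G than in FLM_M and 3.64-fold lower than in BMM. No libraries of different cultures overlapped for either gene. FLM_M exceeded BMM 2.77-fold for Mndal and 3.73-fold for Ifi203. All 6 of these differences passed the test, with limma adjusted p between 7.78e-09 (Mndal, FLM_G against FLM_M) and 9.90e-06 (Ifi203, FLM_G against BMM). Since Mndal overlaps Mnda and Ifi203, reads in shared positions could have been assigned to either gene. Only 6.25% of the read-length stretches of Mndal and 2.79% of those of Ifi203 are shared with other genes' transcripts.

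Pyhin1 (173630917 to 173647928, plus strand) had the lowest level of the 7 in FLM_G, with 0.541, 0.476 and 0.434 FPKM. It measured 37.3, 35.3 and 42.5 FPKM in FLM_M, and 6.72, 6.14 and 6.35 in BMM. The 79.4-fold lower mean in FLM_G than in FLM_M was the widest ratio among the sensors (log2 -4.73, SE 0.08, limma adjusted p = 1.09e-10), and the ratio to BMM was 13.2-fold (log2 -2.32, SE 0.08, limma adjusted p = 1.15e-08). FLM_M was 5.99-fold above BMM (log2 2.41, SE 0.08, limma adjusted p = 3.08e-08). With BC094916 (GENCODE Ifi214), Pyhin1 shares 16.65% of its read-length stretches, but BC094916 itself was at 0 in FLM_G, 0.055 ± 0.05 in FLM_M and 0.00689 ± 0.0014 FPKM in BMM.

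Between FLM_G and FLM_M, 6 of the 7 sensors fell in FLM_G and 1, Zbp1, rose, among 11952 tested genes of which 70.6% had an adjusted p under 0.05 and so were called (35.5% as higher, 35.1% as lower). So the number of sensors called says little beside this background, and the sizes are what differ: the median log2 fold change was -3.32 over the 7 sensors, while the median absolute log2 fold change over all tested genes was 0.44. Between FLM_G and BMM, 0 sensors rose, 6 fell and Aim2 was not called, where 68% of tested genes were called (33.8% higher and 34.1% lower). The median of the sensors was -1.81, against a median absolute change of 0.39 over all tested genes. Between FLM_M and BMM, 6 sensors rose and Zbp1 fell, where 44.6% of tested genes were called (22.7% higher and 21.9% lower), with medians of 1.64 for the sensors and 0.22 in absolute size for all. The comparisons share libraries, so they are not independent of each other.

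Scaling sets the balance of higher and lower genes. With it, 4246 genes were higher and 4195 lower in FLM_G against FLM_M, 4044 and 4081 in FLM_G against BMM, and 2716 and 2613 in FLM_M against BMM. Unscaled, these became 2218 and 7075, 2081 and 6775, and 3323 and 2240, where the unscaled median log2 fold change of all tested genes was -0.389, -0.341 and 0.0472. Apart from Aim2 in FLM_G against BMM, every sensor kept its direction in every comparison without scaling.

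**Figure D2:**
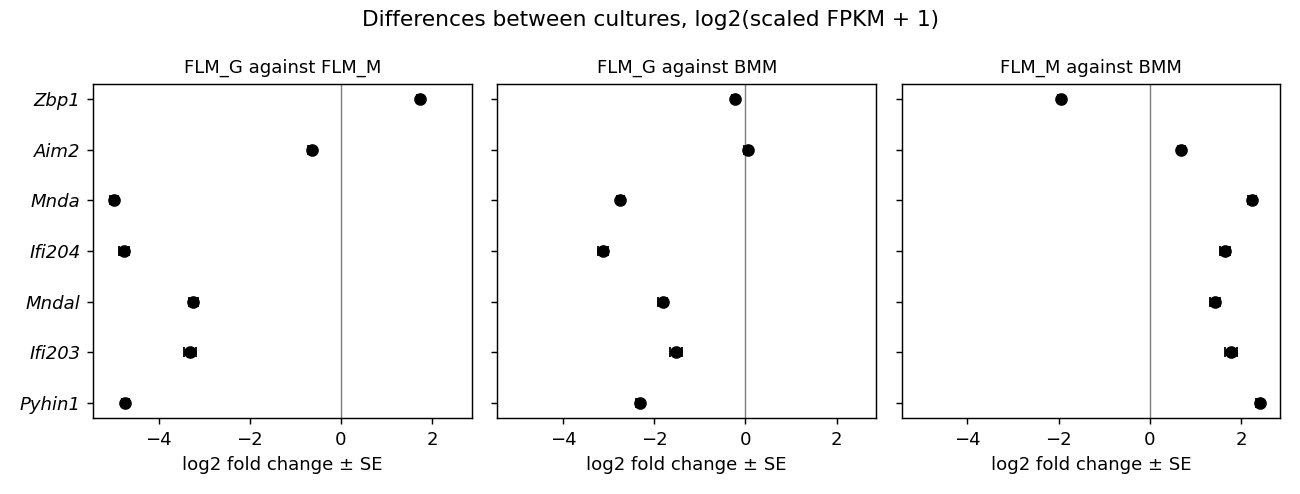
Log2 fold change of each sensor (point) with its standard error (bar) from the limma fit, in the 3 comparisons, on 1 shared axis. Zbp1 stands at 1.73 where the other 6 are below 0 in FLM_G against FLM_M, and at -1.95 where they are above 0 in FLM_M against BMM.

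Summed across the PYHIN family, the order was again FLM_M above BMM above FLM_G. The summed level of its 14 genes was 42.2, 33.5 and 36.3 FPKM in FLM_G, 612, 593 and 655 in FLM_M, and 193, 194 and 200.2 in BMM. Beside the 6 sensors, 5 of the other 8 genes passed the filter. All 5 fell in FLM_G against FLM_M and against BMM and rose in FLM_M against BMM. The medians were -3.99, -1.47 and 3.11. Over all tested genes, 70.6%, 68% and 44.6% were called in these comparisons, and the count of 5 is read only beside those shares. Pydc4 reached 1 FPKM in FLM_M alone and passed the filter through that culture. Its direction in comparisons with FLM_M was therefore fixed by the filter and adds no support. AI607873 (Ifi207) was the family's most abundant gene in BMM, at 10.1 ± 1.5 FPKM in FLM_G, 113 ± 2.0 in FLM_M and 70.9 ± 4.0 in BMM (SD, n = 3 each). Gm4955 (Ifi206) was at 0, 0.0264 and 0.0394 FPKM in FLM_G, 37.8, 32.0 and 37.9 in FLM_M, and 1.66, 1.46 and 1.43 in BMM. Pydc4 (Ifi213) was listed at 0 in the 3 FLM_G libraries and averaged 14.9 ± 0.7 FPKM in FLM_M and 0.524 ± 0.043 in BMM. The pseudogene Gm16340 (Ifi203-ps) was likewise listed at 0 in FLM_G, with 9.93 ± 0.79 FPKM in FLM_M and 2.14 ± 0.33 in BMM.

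Ifi205, whose reads are partly those of Mnda, was listed at 0 in all FLM_G libraries, at 21.2, 23.3 and 24.3 FPKM in FLM_M, and at 0.103, 3.37 and 3.44 in BMM. BMM replicate 1 stood apart from the other BMM libraries. The fold change of Ifi205 in FLM_M against BMM was 3.11 (limma adjusted p = 0.000678), and 2.43 without that library. In FLM_G against BMM it was -1.47 (limma adjusted p = 0.0199), then -2.13 without BMM replicate 1, and the call was lost without BMM replicate 2 (-1.14, limma adjusted p = 0.0701) or 3 (-1.13, limma adjusted p = 0.0694). Ifi202b was listed at 0 in all 9 libraries, and Pydc3 and BC094916 averaged under 1 FPKM in every culture. The make-up of the family's total differed: Aim2 made 29.5% of it in FLM_G, 2.9% in FLM_M and 5.4% in BMM, while Mnda made 10.0%, 23.9% and 15.7% in the same order of cultures.

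**Figure D3:**
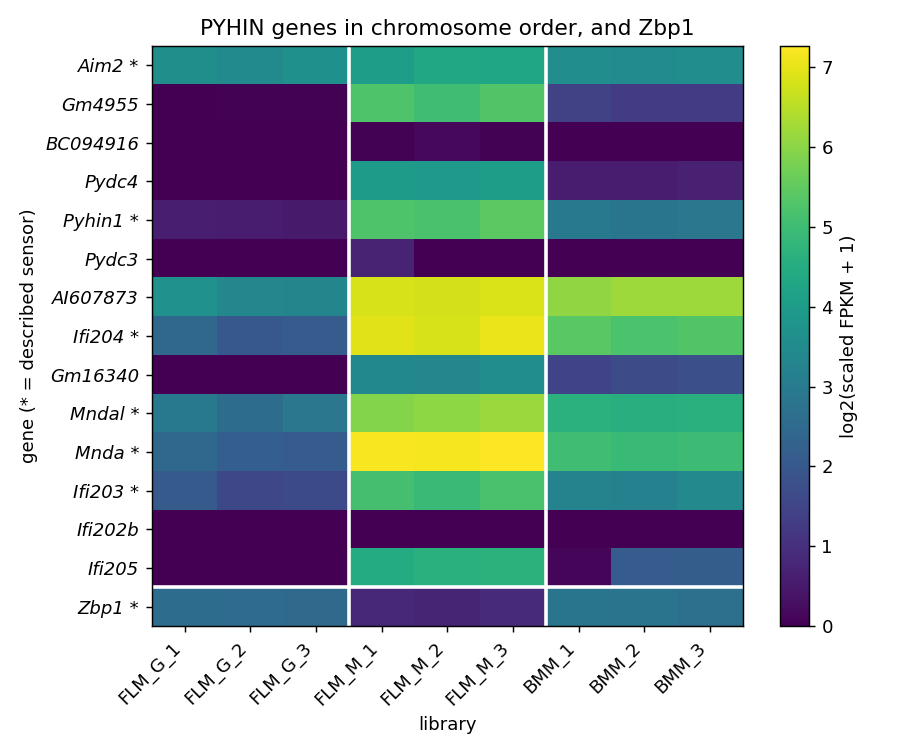
Level of the 14 PYHIN genes, from low to high position on chromosome 1, and of Zbp1 below the white line, as log2(scaled FPKM + 1) in each library, with cultures separated by white lines. Aim2 and AI607873 are the rows that stay above 3 on this scale in the FLM_G columns, and the Zbp1 row is darkest in the FLM_M columns.

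Genes of inflammasomes and pyroptosis were called in both directions. The list holds partners of AIM2 beside other genes, such as Nlrp3, Nlrc4 and Casp4. Of 9 tested genes of the inflammasome and pyroptosis list (10 listed), 4 rose and 5 fell in FLM_G against FLM_M (median -0.48), 5 rose and 4 fell in FLM_G against BMM (median 0.32), and 6 rose and 1 fell in FLM_M against BMM (median 0.45). Over all tested genes 70.6%, 68% and 44.6% were called in these comparisons, so the number called is read only beside those shares, here and for the lists that follow. Unscaled, the counts were 3 higher and 5 lower, 4 and 4, and 6 and 1. Casp1, the protease of the AIM2 inflammasome, averaged 37.0 ± 2.1 FPKM in FLM_G, 112 ± 9.0 in FLM_M and 61.4 ± 3.7 in BMM. Its log2 level fell by 1.57 in FLM_G against FLM_M (limma adjusted p = 1.20e-07). Casp4, a caspase that binds lipopolysaccharide, fell by 1.56 in the same comparison (limma adjusted p = 3.01e-07).

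Genes of the cytokine substrates were highest in FLM_G. Il1b, the gene of interleukin-1β, averaged 18.1 ± 0.62 FPKM in FLM_G, 0.238 ± 0.10 in FLM_M and 0.0548 ± 0.049 in BMM, and rose by 3.95 in FLM_G against FLM_M (limma adjusted p = 2.51e-10) and by 4.18 against BMM (limma adjusted p = 2.21e-10). Only FLM_G brought Il1b past the filter, so its direction in comparisons with FLM_G was fixed by that filter. Il18 averaged 35.4 ± 0.41, 16.3 ± 2.5 and 9.13 ± 1.2 FPKM in FLM_G, FLM_M and BMM, and rose by 1.08 in FLM_G against FLM_M (limma adjusted p = 3.47e-05). Pycard, the adaptor, averaged 74.7 ± 3.3 FPKM in FLM_G, 39.8 ± 3.0 in FLM_M and 39.4 ± 1.3 in BMM. It rose by 0.89 in FLM_G against FLM_M (limma adjusted p = 1.66e-06; 0.42 unscaled, still called) and by 0.91 in FLM_G against BMM (limma adjusted p = 1.75e-06; 0.49 unscaled, still called), while its log2 difference was 0.01 in FLM_M against BMM (limma adjusted p = 0.913). Ninj1, which ruptures the membrane of dying cells, fell by 1.89 in FLM_G (limma adjusted p = 3.89e-05) and by 0.99 in FLM_M (limma adjusted p = 0.00398), both against BMM.

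Of genes linked to ZBP1 and necroptosis, 9 of 9 listed were tested. In FLM_G against FLM_M 2 rose and 5 fell (median -0.28), in FLM_G against BMM 2 rose and 4 fell (median -0.06), and in FLM_M against BMM 3 rose and 3 fell (median 0.11), beside 70.6%, 68% and 44.6% of all tested genes called. Without scaling these counts were 1 higher and 6 lower, 1 and 7, and 5 and 3. Ripk3, the kinase that ZBP1 engages, averaged 2.26 ± 0.092 FPKM in FLM_G, 15.8 ± 1.1 in FLM_M and 23.4 ± 1.3 in BMM. Mlkl, the pore-forming protein of necroptosis, averaged 5.42 ± 0.21 in FLM_G, 23.1 ± 0.59 in FLM_M and 15.3 ± 0.15 in BMM. FLM_G thus held more Zbp1 RNA than FLM_M but less of Ripk3 and Mlkl: Ripk3 fell by 2.36 (limma adjusted p = 3.59e-09) and Mlkl by 1.90 (limma adjusted p = 1.32e-09) on the log2 scale. In FLM_M against BMM, Ripk3 fell by 0.54 (limma adjusted p = 0.000189) and Mlkl rose by 0.56 (limma adjusted p = 1.35e-05). Casp8 rose by 0.74 in FLM_G against BMM (limma adjusted p = 6.53e-06). Adar, whose ADAR1 protein also binds Z-form RNA, fell by 0.87 in FLM_G against FLM_M (limma adjusted p = 9.42e-06) and rose by 0.52 in FLM_M against BMM (limma adjusted p = 0.000632).

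The cGAS-STING route and the enzymes that clear cytosolic DNA split in both directions. Of 14 tested genes, 6 rose and 6 fell in FLM_G against FLM_M (median 0.00), 7 rose and 6 fell in FLM_G against BMM (median 0.21), and 6 rose and 1 fell in FLM_M against BMM (median 0.20). These counts lean on scaling: unscaled, 1 was higher and 8 lower in FLM_G against FLM_M, 4 and 7 in FLM_G against BMM, and 8 and 1 in FLM_M against BMM. The DNA sensor cGAS (Mb21d1 in the table) averaged 4.82 ± 0.56 FPKM in FLM_G, 9.87 ± 1.1 in FLM_M and 8.07 ± 0.78 in BMM. STING (Tmem173) averaged 23.5 ± 2.4, 32.9 ± 0.5 and 21.1 ± 0.19 FPKM in FLM_G, FLM_M and BMM. Irf7, an interferon-induced transcription factor, fell by 4.06 in FLM_G against FLM_M (limma adjusted p = 1.82e-09), with means of 2.52 ± 0.56 and 57.1 ± 1.6 FPKM. Trex1, a DNase that degrades cytosolic DNA, averaged 18.1 ± 2.1 FPKM in FLM_G, 59.3 ± 13.0 in FLM_M and 27.7 ± 0.86 in BMM.

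Sensors of RNA and endosomal nucleic acids were tested for 11 of 11 listed genes. In FLM_G against FLM_M 4 rose and 7 fell (median -1.44), in FLM_G against BMM 3 rose and 6 fell (median -0.12), and in FLM_M against BMM 7 rose and 2 fell (median 0.78). Without scaling they were 2 higher and 7 lower, 1 and 7, and 7 and 2. The cytosolic RNA sensor RIG-I (Ddx58) averaged 4.47 ± 0.43 FPKM in FLM_G, 31.1 ± 2.5 in FLM_M and 9.51 ± 0.50 in BMM, and its relative Dhx58 averaged 4.86 ± 0.41, 32.3 ± 1.8 and 16.5 ± 1.2 in the same cultures. Tlr8 rose by 0.99 in FLM_G against BMM (limma adjusted p = 0.000313). Tlr7, an endosomal RNA receptor, rose by 2.11 in FLM_M against BMM (limma adjusted p = 0.000593); in FLM_G against BMM its log2 difference was 0.67 (limma adjusted p = 0.0823), and 1.10 without BMM replicate 2 (limma adjusted p = 1.06e-05).

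Interferon signalling genes (14 of 15 tested) counted 2 higher and 8 lower in FLM_G against FLM_M (median -0.58), 2 and 8 in FLM_G against BMM (median -0.39), and 5 and 2 in FLM_M against BMM (median 0.09), beside called shares of 70.6%, 68% and 44.6% over all tested genes; unscaled they were 1 and 12, 1 and 11, and 7 and 1. Usp18, an interferon-induced brake on the interferon receptor, averaged 0.68 ± 0.23 FPKM in FLM_G, 107 ± 6.1 in FLM_M and 12.5 ± 0.32 in BMM. Ifnar1, the receptor chain, averaged 7.28 ± 0.43 in FLM_G, 20.9 ± 0.99 in FLM_M and 23.9 ± 0.51 in BMM. The kinases Jak1 and Jak2 were not called in any comparison with scaling. Ifnb1, the gene of interferon-β, did not pass the filter, at 0.0176 ± 0.031 FPKM in FLM_G, 0.628 ± 0.079 in FLM_M and 0 in every BMM library.

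The 15 interferon-stimulated effector genes were all tested, and all 15 fell in FLM_G against FLM_M (median -4.32) and against BMM (median -1.86) and rose in FLM_M against BMM (median 2.26). Each had the order of means of the PYHIN sensors other than Aim2, FLM_M above BMM above FLM_G. Ifit3, an antiviral protein gene, averaged 0.70 ± 0.075 FPKM in FLM_G, 157 ± 13 in FLM_M and 14.4 ± 0.91 in BMM. Zbp1 therefore had the opposite order to all 15 effectors in FLM_M against BMM, with 0.76 ± 0.09 FPKM in FLM_M and 5.81 ± 0.35 in BMM (SD, n = 3 each). The effectors kept these counts without scaling.

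**Figure D4:**
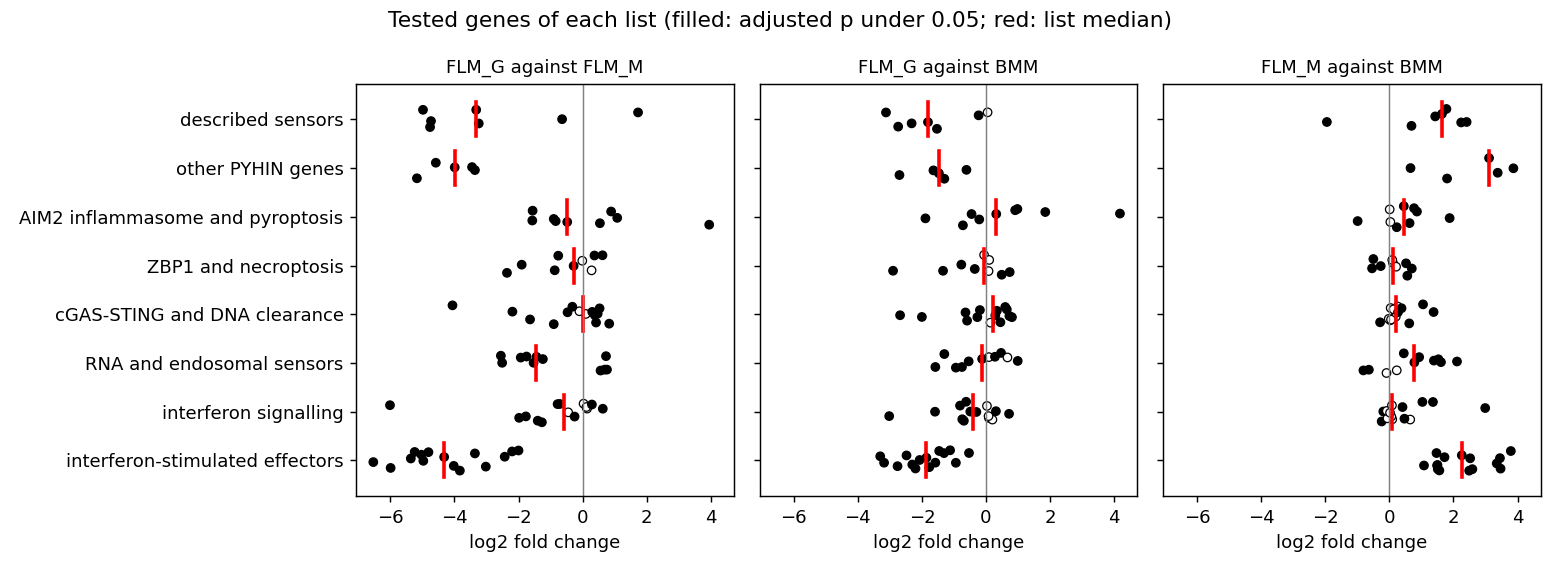
Log2 fold change of each tested gene of the sensor set and of 7 related lists, in the 3 comparisons, with filled points for genes called at an adjusted p under 0.05, open points for the others and a red line at each list's median. Points of a row are spread vertically at random. The effector row lies wholly below 0 in the FLM_G comparisons (medians -4.32 and -1.86) and wholly above 0 in FLM_M against BMM (2.26), while the necroptosis and cGAS-STING rows straddle 0.

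For each sensor, the 3 tested genes of most similar profile were found by the root-mean-square difference of log2(scaled FPKM + 1) over the 9 libraries, each gene centred on its own mean. With 9 libraries in 3 cultures, such likeness rests mostly on 3 group levels and is a description. Zbp1 was closest to Wwc2 (0.073), Cdkn1a (0.085) and Papss2 (0.099). Cdkn1a, the cell-cycle inhibitor p21, averaged 110.4 ± 3.9 FPKM in FLM_G, 33.8 ± 1.4 in FLM_M and 123 ± 1.2 in BMM. Aim2 was closest to Phyh (0.043), a peroxisomal enzyme of fatty acid oxidation, then Zcrb1 (0.047) and Tagap1 (0.063).

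Pyhin1 was closest to Cmpk2 (0.096), an interferon-induced nucleotide kinase, then Ifit1 (0.123) and Cd207 (0.142). Mnda was closest to Cd207 and Ifit1 (0.129 each) and to Pyhin1 (0.189). Cd207, the Langerhans cell lectin langerin, was listed at 0 in FLM_G and averaged 27.3 ± 2.0 FPKM in FLM_M and 4.97 ± 0.43 in BMM. Ifi204 was closest to Oas3 (0.139), Rtp4 (0.216) and Eng (0.252). Mndal was closest to Oas2 (0.152), Cnrip1 (0.179) and 4930486L24Rik (0.189). Among the 3 genes nearest to Ifi203 were the pseudogene Gm16340 (0.156) and Oas2 (0.184). Oas2 and Oas3 make short RNA messengers that activate the antiviral RNase L.

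**Figure D5:**
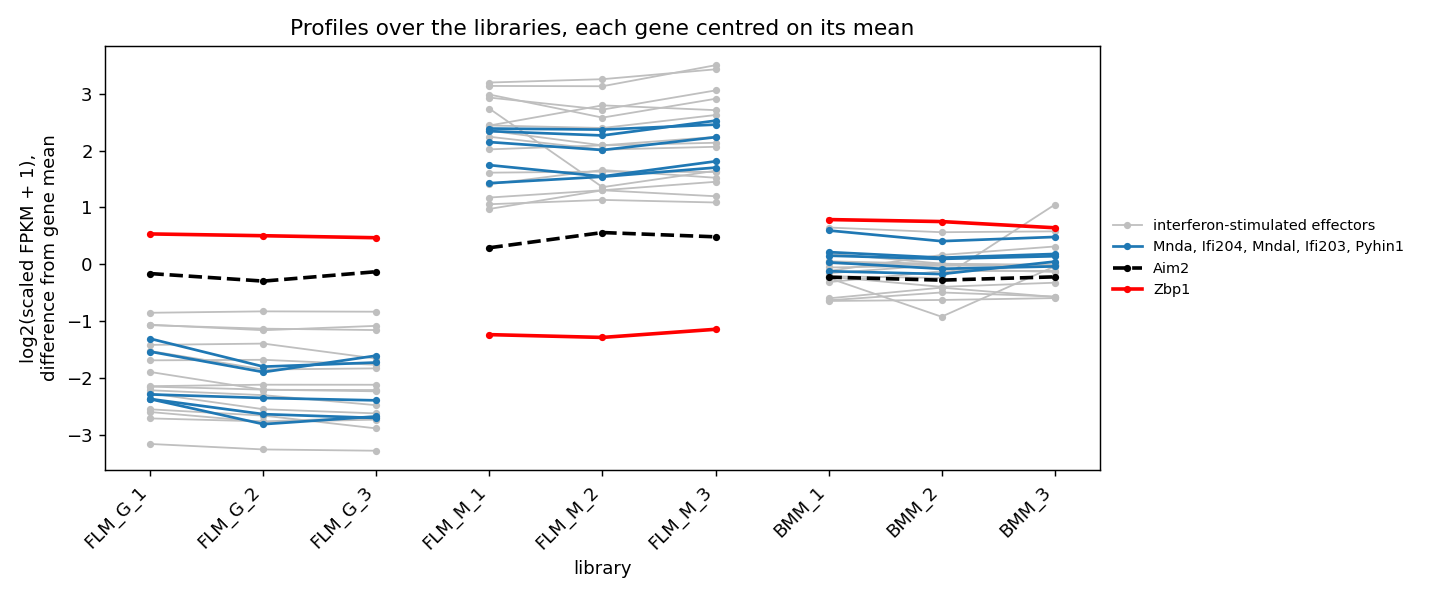
Profile of each gene over the 9 libraries as log2(scaled FPKM + 1) minus the gene's own mean, with lines joining the libraries of a culture: 5 PYHIN sensors in blue, Aim2 dashed, Zbp1 in red and the 15 interferon-stimulated effectors in grey. The blue lines run among the grey ones, Aim2 stays near 0, and Zbp1 is the line below 0 in FLM_M.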

How the data were processed

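RNA of 9 macrophage libraries was sequenced. Per the submitters' processing notes, the tools included HISAT2 and StringTie, cutadapt, bcl2fastq, FastQC and DESeq2, with mm10 and GRCm38 as builds; versions and which tool made which table are not given in the sources used here. The authors deposited a table of FPKM and a table of read counts per gene over 46078 Ensembl genes. The counts summed to 782400 to 1170813 per library, a median 0.11% to 0.58% of the reads that the FPKM imply in single-transcript genes, so they served only as an alternative. An earlier analysis of these data had also found that the counts follow the opposite strand, which was a reason to use FPKM.

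FPKM were scaled by TMM (edgeR 4.0.16, unweighted). Genes of at least 1 FPKM in 3 or more libraries (11952) entered tests of log2(scaled FPKM + 1) in limma 3.58.1 (trend; R 4.3.3) in a model over all 9 libraries (6 residual degrees of freedom), two-sided, with Benjamini-Hochberg adjustment and calls at an adjusted p under 0.05. The fit was tested on simulated data. SD is over the 3 libraries of a culture, and SE comes from the fit. Gene models were GENCODE M21. The members and lists were chosen with earlier results of these data known. Named list genes are, per list and comparison, called genes among the 4 largest changes that averaged at least 5 scaled FPKM in the higher culture, and uncalled ones of at least 5. Ifnb1, the filtered-out PYHIN genes and genes named for their order or dependence on a library were named after their values were seen. Alternatives were other scalings, pseudocount and filters, fewer libraries, a replicate block, and edgeR and DESeq2 1.42.0 on the counts. Some genes that the naming rule selects are not reported here.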

Additional observations from a re-analysis of the deposited data

How the results depend on the processing

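Under RLE or upper-quartile scaling, no scaling, a pseudocount of 0.1, no filter, a filter of 5 FPKM, only the 6 libraries compared, and with each library left out, every called sensor kept its direction and call. Aim2 in FLM_G against BMM, not called at 0.05, stood at -0.01 under upper-quartile scaling and was called at -0.34 without scaling (limma adjusted p = 0.00292). Leaving out each library gave 7606 to 8242 called genes in FLM_G against FLM_M, 7239 to 8063 in FLM_G against BMM and 4192 to 5509 in FLM_M against BMM.

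The count table, of at most 173 counts per sensor and library and 0 to 7 for Zbp1, gave fewer calls. Whether the low counts or their strand is the cause was not tested. Called genes were 2855 (edgeR) and 2631 (DESeq2 1.42.0) in FLM_G against FLM_M, 2458 and 2201 in FLM_G against BMM, and 1300 and 827 in FLM_M against BMM. Called list genes were 41 and 37, 23 and 22, and 35 and 24, against 69, 67 and 56 from the FPKM. In FLM_G against BMM edgeR called 3 sensors and DESeq2 2. Lost there were Mnda (-1.59, edgeR adjusted p = 0.108; -1.70, DESeq2 0.213), Pyhin1 (-2.38, edgeR adjusted p = 0.13; -2.58, DESeq2 0.215), Ifi203 (-1.49, DESeq2 adjusted p = 0.055) and Zbp1 (0.57, DESeq2 adjusted p = 0.774, the other direction); Zbp1 in FLM_M against BMM gave -3.95 (DESeq2 adjusted p = 0.0749).

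The labels do not say that replicate numbers pair the samples, and same-numbered deviations correlated at -0.0771 to 0.0899. With the replicate number as a block, 8386, 8018 and 5140 genes were called in FLM_G against FLM_M, FLM_G against BMM and FLM_M against BMM, and no sensor call changed. In FLM_G against BMM every sample correlated best with its own number. Whether levels near 0 are absence is limited by depth.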
